A study of Mus musculus with 12 samples.

Results

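The genes described here encode the 4 neuregulins (Nrg1, Nrg2, Nrg3 and Nrg4), the 4 receptors of the ErbB family (Erbb2, Erbb3, Erbb4 and Egfr) and Lingo1, a membrane protein known as a brake on oligodendrocyte differentiation. They were chosen by their gene symbols, all 9 were found among the 21937 genes listed, and all 9 passed the filter for low values (a mean count of 10 or more) that left 14634 genes to test. The RNA came from a low-density membrane fraction rich in myelin, purified from the brains of male wild-type c57Bl6/N mice by sucrose density gradients. Their ages were postnatal day 18 (P18), postnatal day 75 (P75), 6 months and 24 months, and each age has 3 libraries, 12 in all. At 6 months each library came from the brain of a single mouse, and how many mice gave each library at the other ages is not given in the sources used here, so p-values measure the spread between libraries. The labels name no treatment, and age is the difference they give between the groups.

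Neuregulins are growth factors that share an EGF-like domain, a short fold held by 6 cysteines that binds the receptor. Erbb3 and Erbb4 bind neuregulins, Erbb2 binds no known ligand of its own and signals in pairs with the others, and Egfr binds the related EGF-type ligands. In peripheral nerves Nrg1 on axons sets the thickness of the myelin that Schwann cells make, while in the brain the family is known for roles in oligodendrocytes, in inhibitory interneurons and at synapses.

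The EGF-like domain is shown because it decides which receptors a neuregulin can bind, and because the counts of a gene pool all transcripts that carry different forms of it. The coding stretches of 3 of the 4 neuregulins were taken from GENCODE vM1 transcripts on the genome assembly NCBIM37 (mm9), where each joins 2 exons on the minus strand, and the 6 cysteine codons are in capitals. Nrg1-201 holds the beta form of the domain (chr8:32948170-32959870) and Nrg1-203 the alpha form (chr8:32948770-32959870). Nrg3-001 lies at chr14:39481549-39825342 and Nrg4-001 at chr9:55089984-55128776.
Nrg1-201: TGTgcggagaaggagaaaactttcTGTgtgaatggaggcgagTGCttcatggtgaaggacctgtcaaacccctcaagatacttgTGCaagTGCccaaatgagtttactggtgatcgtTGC
Nrg1-203: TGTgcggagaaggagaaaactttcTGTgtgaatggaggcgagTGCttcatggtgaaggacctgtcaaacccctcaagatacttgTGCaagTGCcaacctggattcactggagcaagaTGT
Nrg3-001: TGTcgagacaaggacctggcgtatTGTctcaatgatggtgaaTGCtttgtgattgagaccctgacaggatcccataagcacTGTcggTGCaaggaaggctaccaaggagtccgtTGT
Nrg4-001: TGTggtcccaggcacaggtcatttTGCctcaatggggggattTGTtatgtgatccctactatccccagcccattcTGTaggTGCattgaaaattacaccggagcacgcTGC
Both Nrg1 forms are 120 bases long and agree at 108 of them (90%), and they differ only after the fifth cysteine codon. The Nrg3 stretch has 117 bases and the Nrg4 stretch 111. The normalized read counts of Nrg1 below cover the alpha and beta forms together.

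The libraries held 20299052 to 27214385 reads on genes, and Mbp, which encodes myelin basic protein, took 9.47% to 20.8% of them at P18 and 4.76% to 8.48% at the later ages. Markers of mature oligodendrocytes were found in every library, with a normalized read count of at least 3050 for Mog, 4570 for Mag and 7570 for Cnp. Their means at P18 and 24 months were 7199 and 3149 for Mog, 7525 and 6151 for Mag, and 36481 and 8101 for Cnp. RNA of other cells was present too, since the 11 neuron markers in the table (among them Rbfox3, Snap25 and Tubb3) summed to between 187812 and 244669 and none of the 11 was at 0 in any library. Annotated genes overlap Nrg1, Nrg3, Nrg4, Erbb2, Erbb4 and Egfr, with which reads could be shared, and none overlaps Nrg2, Erbb3 or Lingo1. In such bulk samples, fewer cells of a type and less RNA per cell cannot be told apart.

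Across the ages, the neuregulin and ErbB genes both rose and fell between P18 and P75, and all their calls between P75 and 6 months were rises. Rises and falls are calls with an adjusted p under 0.1 (limma on the log2 of the count + 1, Benjamini-Hochberg adjustment over all 14634 genes). From P18 to P75, 5 of the 9 genes rose and 2 fell, where 48.8% of all genes tested were called, 25.9% up and 22.9% down. From P75 to 6 months 7 rose and none fell, where 60.6% of all genes were called, 31.2% up and 29.4% down. Between 6 and 24 months Nrg3 rose and Erbb3 fell, where 29.3% of all genes were called, 16.6% up and 12.7% down. Over the whole span from P18 to 24 months 6 rose and none fell, where 69.0% of all genes were called, 34.7% up and 34.3% down. The median log2 change of the 9 genes was 0.27, 0.56, -0.02 and 0.91 in these 4 comparisons, beside 0.02, 0.01, 0.03 and -0.01 over all genes tested. The comparisons share libraries and are not independent of each other. Over the whole span 8 of 9 microglia markers rose too, and their summed count went from between 4602 and 5283 at P18 to between 10282 and 12711 at 24 months. The part of microglia, or of the lower counts of Mog and Cnp given above, in the values of the 9 genes was not tested.

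**Figure D1:**
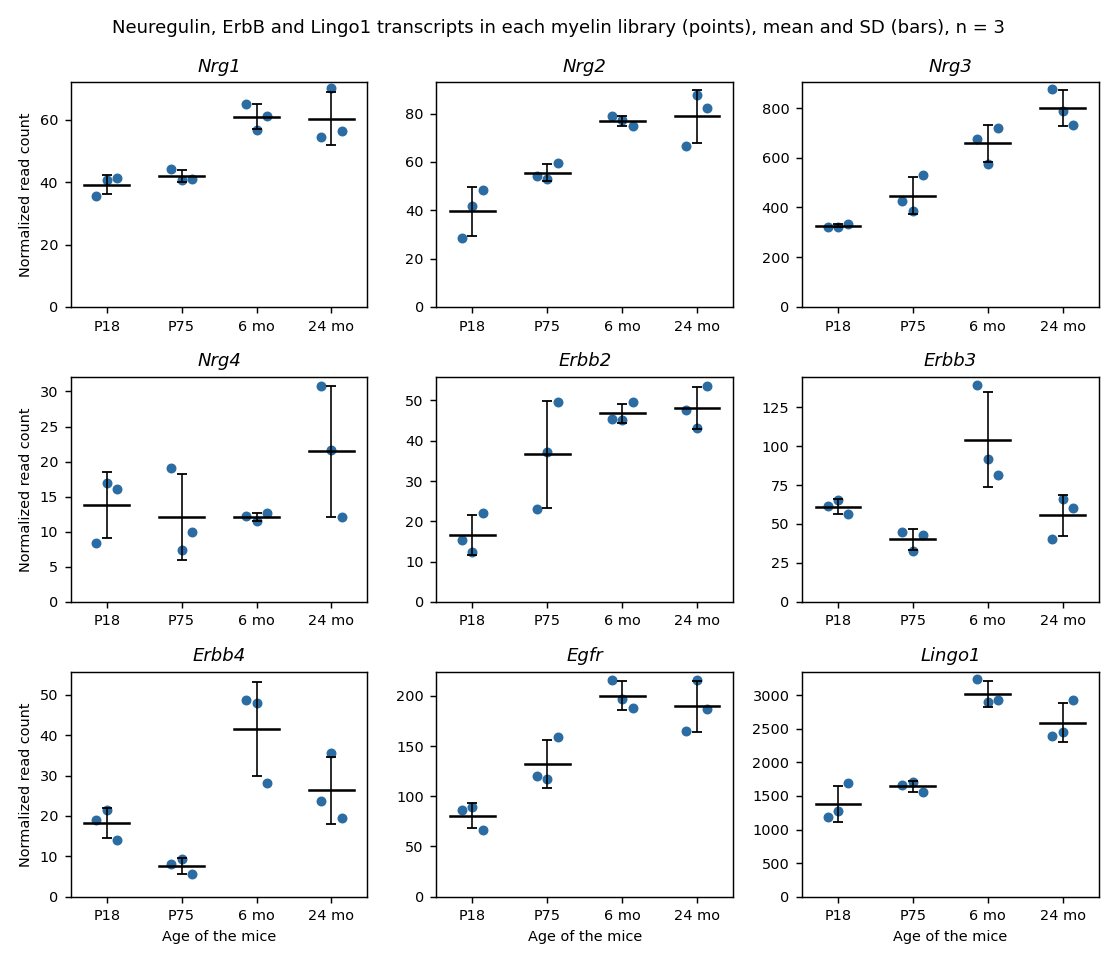
Normalized read count (vertical axes, linear from 0) of each of the 9 genes in each of the 12 libraries (points) by age of the mice, with the mean and SD of 3 libraries as bars. Nrg3, Egfr and Lingo1 rise to 6 months, Erbb3 and Erbb4 dip at P75 and peak at 6 months, and Nrg4 has no separated ages.

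Nrg3 was the most abundant neuregulin. It encodes a ligand of Erbb4 known mainly from neurons, and it lies at chr14:39182138-40286376 on the minus strand of NCBIM37. Its normalized read count was 323, 323 and 332 at P18, 427, 387 and 531 at P75, 676, 577 and 721 at 6 months, and 876, 788 and 733 at 24 months. Each age lay above the one before it with no overlap between libraries. The log2 change was 0.44 (SE 0.12, adjusted p = 0.00649) from P18 to P75, 0.56 (SE 0.12, adjusted p = 0.000854) from P75 to 6 months and 0.28 (SE 0.12, adjusted p = 0.0989) from 6 to 24 months. Over the whole span the mean rose 2.45-fold, a log2 change of 1.29 (95% interval 1.04 to 1.53, adjusted p = 9.84e-08). The call after 6 months was lost without P18 replicate 1 or 2, P75 replicate 1, 6-month replicate 1 or 2, or 24-month replicate 1 or 2 (0.19 to 0.30, adjusted p = 0.107 to 0.337). It was also lost when all libraries were scaled to the same total (0.24, adjusted p = 0.251), after quantile normalization (adjusted p = 0.110) and without a filter on low values (adjusted p = 0.123).

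Nrg1 and Nrg2 were found at far lower counts than Nrg3. Nrg1 (chr8:32928500-33119581, minus strand) had 35.7, 40.7 and 41.2 at P18, 44.1, 40.8 and 40.9 at P75, 65.0, 56.8 and 61.3 at 6 months, and 54.5, 70.3 and 56.5 at 24 months, from 30 to 80 reads in a library. Both younger ages lay below both older ones. From P18 to P75 the log2 change was 0.10 (95% interval -0.25 to 0.45, adjusted p = 0.667), and from P75 to 6 months Nrg1 rose by 0.53 (SE 0.17, adjusted p = 0.0132), 1.46-fold. Later its change was -0.02 (95% interval -0.37 to 0.33, adjusted p = 0.944). From P18 to 24 months Nrg1 rose by 0.61 (SE 0.17, adjusted p = 0.00447), which came to 0.32 (adjusted p = 0.0958) after quantile normalization.

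Nrg2, a neuregulin of neurons, lies at chr18:36177333-36357034 on the minus strand. It was measured at 28.5, 41.8 and 48.2 at P18, 54.1, 52.9 and 59.7 at P75, 78.8, 77.2 and 74.9 at 6 months, and 66.4, 87.6 and 82.4 at 24 months. P18, P75 and 6 months did not overlap, and 24 months overlapped 6 months. Nrg2 rose by 0.51 (SE 0.19, adjusted p = 0.0396) from P18 to P75, by 0.47 (SE 0.19, adjusted p = 0.0480) from P75 to 6 months and by 1.0 (SE 0.19, adjusted p = 0.000224) from P18 to 24 months, while its change after 6 months was 0.02 (95% interval -0.38 to 0.42). The first of these calls was lost without P18 replicate 1 (0.30, adjusted p = 0.209) or P75 replicate 3 (0.46, adjusted p = 0.112) and with the libraries of those 2 ages alone (adjusted p = 0.1), a fit that called 3 rises among the 9 genes in place of 5. The second was lost without P75 replicate 2 (0.43, adjusted p = 0.116) or 6-month replicate 1 (0.45, adjusted p = 0.111).

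Nrg4, a ligand of Erbb4 known from fat tissue, was near the limit of detection at 7 to 31 reads in a library. It lies at chr9:55068029-55174651 on the minus strand, where Fbxo22 overlaps it on the opposite strand, and how the counting treated strand is not given in the sources used here. Counts were 8.32, 17.0 and 16.1 at P18, 19.0, 7.42 and 9.95 at P75, 12.2, 11.5 and 12.7 at 6 months, and 30.7, 21.6 and 12.03 at 24 months. All ages overlapped, and no comparison was called. The largest change was 0.68 (95% interval -0.14 to 1.51, adjusted p = 0.225) from 6 to 24 months, and without 24-month replicate 3 it was 1.03 (adjusted p = 0.0941). Without that library the change from P18 to 24 months was 0.92 (adjusted p = 0.0620), in place of 0.57 (adjusted p = 0.212).

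Among the receptors, Erbb3 and Erbb4 fell and then rose, whereas Erbb2 and Egfr rose early and did not fall again. Erbb3 pairs with Erbb2 to signal to PI3 kinase and is known from the oligodendrocyte lineage and from Schwann cells. It lies at chr10:128004579-128026708 on the minus strand, with no overlapping gene. Its normalized read count was 61.8, 65.5 and 56.3 at P18, 45.1, 32.5 and 43.1 at P75, 139, 91.4 and 81.7 at 6 months, and 40.6, 66.0 and 60.2 at 24 months. The 6-month libraries were above all others, the P75 libraries were below those of P18, and 24 months overlapped both P18 and P75. Erbb3 fell by 0.60 on the log2 scale (SE 0.22, adjusted p = 0.0389) from P18 to P75, rose by 1.33 (SE 0.22, adjusted p = 0.000129) to 6 months, 2.59-fold, and fell by 0.88 (SE 0.22, adjusted p = 0.0131) to 24 months. The difference between P18 and 24 months was -0.16 (95% interval -0.63 to 0.31, adjusted p = 0.542), and after quantile normalization -0.44 (adjusted p = 0.0944).

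The early fall of Erbb3 was lost without P18 replicate 2 (-0.55, adjusted p = 0.104), without P75 replicate 2 (-0.46, adjusted p = 0.152) and with all libraries scaled to the same total (-0.48, adjusted p = 0.107), so that scaling called 5 rises and 1 fall among the 9 genes. Its later rise and fall were called in all 12 fits that leave out a library and under every other setting in which it was tested. All 7 newly formed oligodendrocyte markers fell from P18 to P75, and their summed count went from between 3530 and 3993 to between 1344 and 1481. At 6 months their sum was 1333 to 1621, with 2 of the 7 up and 2 down since P75. At 24 months it was 1014 to 1312, with 2 of the 7 down and none up since 6 months. From P75 to 6 months 4 of 6 oligodendrocyte precursor markers rose, with a sum of 4311 to 5255 at P75 and 6669 to 7606 at 6 months. Without Ptprz1, which had means of 2257 and 3979, the other 5 summed to between 2394 and 2750 and then to between 2893 and 3214. None of the 6 was called from 6 to 24 months. The part of these cells in the values of Erbb3 was not tested.

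Erbb4 had the largest change of the 9 genes. It is the neuregulin receptor best known from inhibitory interneurons and is at chr1:68078760-69154633 on the minus strand. Counts were 19.0, 21.5 and 14.1 at P18, 8.02, 9.27 and 5.53 at P75, 48.8, 47.9 and 28.2 at 6 months, and 23.8, 35.7 and 19.4 at 24 months. The P18 libraries held 14 to 19 reads each. The P75 libraries held 5 to 10 reads each and lay below all others, and 6 months lay above P18 and P75 and overlapped 24 months. Erbb4 fell by 1.16 on the log2 scale (SE 0.31, adjusted p = 0.00613) from P18 to P75 and rose by 2.29 (SE 0.31, 95% interval 1.65 to 2.94, adjusted p = 1.5e-05) from P75 to 6 months, 5.47-fold between the means. Both calls were kept in every fit that leaves out a library, and with a pseudocount of 10 the change was -0.68 and still called.

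After 6 months the change of Erbb4 was -0.65 (95% interval -1.29 to 0.00, adjusted p = 0.143). It was called in 5 other settings, among them edgeR on the recovered reads (-0.67, adjusted p = 0.0799) and the replicate number as a block (adjusted p = 0.0781), and without 6-month replicate 3 (-0.90, adjusted p = 0.0692). From P18 to 24 months it was 0.49 (95% interval -0.16 to 1.13, adjusted p = 0.175), called with the replicate number as a block (adjusted p = 0.0958) and without 24-month replicate 3 (0.67, adjusted p = 0.0972). The 9 interneuron markers (among them Gad1, Pvalb and Sst) were measured beside Erbb4. Their summed count lay between 28198 and 35485 at P18, 37387 and 43547 at P75, 42059 and 42886 at 6 months, and 46497 and 48194 at 24 months. From P18 to P75, when Erbb4 fell, 6 of the 9 rose and 1 fell, and from P75 to 6 months, when Erbb4 rose, 3 rose and 1 fell. The part of interneurons in the values of Erbb4 was not tested.

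Erbb2, the partner of the other ErbB receptors, lies at chr11:98273784-98299030 on the plus strand. It was counted at 15.5, 12.4 and 22.1 at P18, 23.1, 37.1 and 49.8 at P75, 45.5, 45.3 and 49.6 at 6 months, and 47.6, 43.3 and 53.7 at 24 months. P18, with 11 to 22 reads in a library, was below all other ages. The other 3 ages overlapped each other, with P75 the most spread. Erbb2 rose by 1.06 (SE 0.26, adjusted p = 0.00421) from P18 to P75 and by 1.51 (SE 0.26, 95% interval 0.95 to 2.07, adjusted p = 0.000107) from P18 to 24 months, 2.89-fold between the means. The change from P75 to 6 months was 0.41 (adjusted p = 0.201), and 0.66 (adjusted p = 0.0560) without P75 replicate 3.

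Egfr, the receptor of EGF and TGF alpha, drives the expansion of early glial cells. It lies at chr11:16652206-16818161 on the plus strand. Its normalized read count was 86.7, 89.3 and 66.3 at P18, 120, 117 and 159 at P75, 216, 197 and 188 at 6 months, and 165, 216 and 187 at 24 months. P18, P75 and 6 months were separated, and 24 months overlapped 6 months and lay above P75. The rise was 0.70 (SE 0.16, adjusted p = 0.00199) from P18 to P75, 0.61 (SE 0.16, adjusted p = 0.00373) from P75 to 6 months and 1.22 (SE 0.16, adjusted p = 4.15e-06) from P18 to 24 months, and the change after 6 months was -0.09 (95% interval -0.42 to 0.24). The 3 rises of Egfr were called in every fit that leaves out a library. Of the 8 astrocyte markers, 1 rose and 2 fell from P18 to P75, 2 rose and 1 fell from P75 to 6 months, and 4 rose and 2 fell from P18 to 24 months. Their sum stayed between 97077 and 116892, of which Aldoc and Slc1a2 held most, and without Aldoc the other 7 summed to between 53049 and 73813 at P18 and between 71606 and 82029 at 6 months. Slc1a3, a glutamate transporter of astrocytes, had means of 7292, 8650, 15370 and 13732 at the 4 ages in order. Gfap had 10953, 5729, 5858 and 9083, and Aldh1l1 had 1559, 1290, 1264 and 1118. The part of astrocytes in the values of Egfr was not tested.

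Lingo1 is a coreceptor of the Nogo receptor complex, is expressed by neurons and oligodendrocytes and restrains myelination. It lies at chr9:56466282-56533060 on the minus strand and had by far the highest counts of the 9 genes. They were 1185, 1281 and 1687 at P18, 1671, 1711 and 1557 at P75, 3240, 2894 and 2926 at 6 months, and 2394, 2450 and 2929 at 24 months. P18 and P75 overlapped through P18 replicate 3, both were below the older ages, and 6 and 24 months overlapped. Lingo1 rose by 0.87 (SE 0.12, adjusted p = 1.5e-05) from P75 to 6 months, 1.83-fold, and by 0.91 (SE 0.12, adjusted p = 4.11e-06) from P18 to 24 months, and both calls held in every setting. The change from P18 to P75 was 0.27 (SE 0.12, adjusted p = 0.0793). That call was lost with edgeR (adjusted p = 0.114), with DESeq2 (adjusted p = 0.105), with the libraries of those 2 ages alone (adjusted p = 0.129) and without P18 replicate 1 (0.16, adjusted p = 0.316), P18 replicate 2 (0.22, adjusted p = 0.215), P75 replicate 1 (0.25, adjusted p = 0.157) or P75 replicate 2 (0.24, adjusted p = 0.183). The later change was -0.22 (95% interval -0.47 to 0.02, adjusted p = 0.182), called with the libraries of those 2 ages alone (adjusted p = 0.0765), without P18 replicate 3 (adjusted p = 0.0600) and without 24-month replicate 3 (-0.32, adjusted p = 0.0961).

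**Figure D2:**
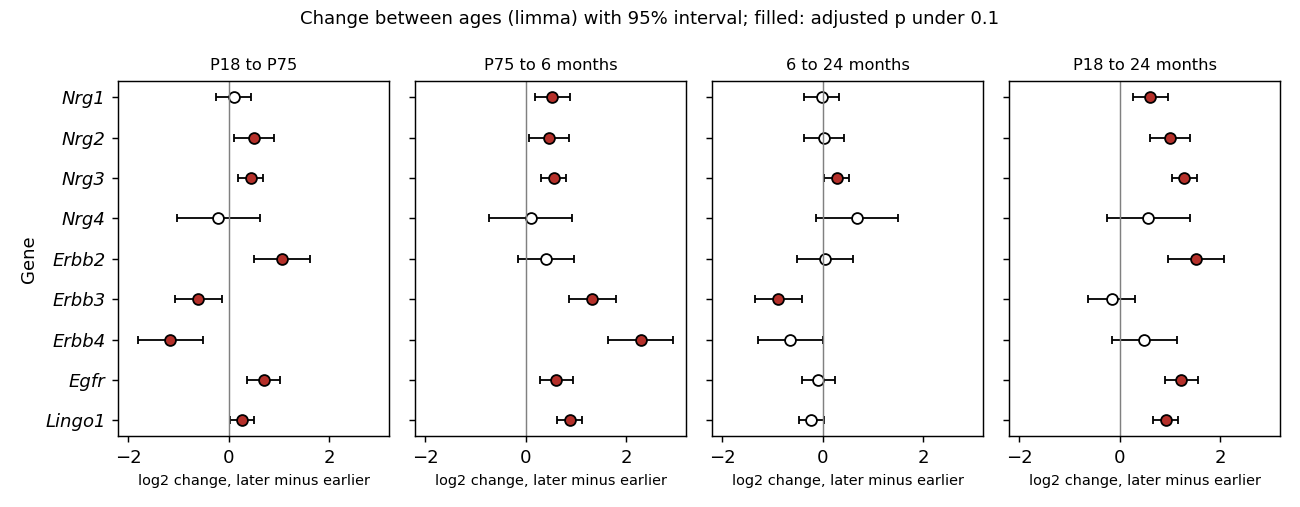
Log2 change (later minus earlier age, horizontal axes) of each gene in the 4 comparisons, with the 95% interval from limma as bars and filled points for an adjusted p under 0.1. From P75 to 6 months the 7 filled points lie above 0, where Erbb4 reaches 2.29, and from 6 to 24 months the filled points are Nrg3 at 0.28 and Erbb3 at -0.88.

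Counted by libraries that do not overlap between the ages compared, 4 of the 9 genes were higher and 2 lower at P75 than at P18, where 47.7% of all genes tested did not overlap, 25.1% higher and 22.6% lower. Between P75 and 6 months 7 were higher and none lower, against 63.1% of all genes, 32.1% higher and 30.9% lower. After 6 months Nrg3 was higher and Erbb3 lower, against 43.5% of all genes, 23.2% higher and 20.3% lower. For P18 and 24 months 6 were higher and none lower, against 66.6% of all genes, with 33.3% in either direction. Scaled to the same total, the median log2 change of all genes from P18 to P75 was 0.14, up from 0.02 with the deposited scaling, and the 5 rises were still called there, with Lingo1 the smallest at 0.39. Over all genes, that scaling gave 4739 rises and 1827 falls for this step, in place of 3783 and 3354. In the step from 6 to 24 months it called Erbb3 and not Nrg3, and quantile normalization called 2 falls and no rise among the 9 genes.

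Levels can be compared between genes only per length, so each count was divided by the length of the merged exons of the gene in GENCODE vM1. On this scale, in normalized read counts per kb, Lingo1 was highest at every age, from 353 ± 68.0 (SD, n = 3) at P18 to 769 ± 48.7 at 6 months. Nrg3 came next, from 80.4 ± 1.32 at P18 to 197 ± 17.7 at 24 months, and did not overlap its neighbours at any age. Nrg2 and Nrg1 followed at 12.7 and 12.2 at P18 and at 24.7 and 19.0 at 6 months, overlapping at P18 and at 24 months and apart at P75 and 6 months. Neuregulin transcripts other than Nrg4 were thus higher per kb on average than those of all 4 receptors at every age. The ranges of Nrg1 and Egfr overlapped from P75 on, those of Nrg1 and Erbb3 at 6 months and those of Nrg2 and Erbb3 at P18. This order depends on the length used, from 3116 bases for Nrg2 to 12355 for Erbb4. Merged exons take in all annotated transcripts, and which were expressed was not tested. Undivided, the mean counts of Egfr (80.8) and Erbb3 (61.2) at P18 were above those of Nrg1 (39.2) and Nrg2 (39.5). Those of Erbb2 (16.7) and Erbb4 (18.2) were below.

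The order of the receptors per kb differed between the ages. At P18 Erbb3 (10.2 ± 0.776) was above Egfr (7.13 ± 1.11), Egfr above Erbb2 (3.198 ± 0.950), and Erbb4 (1.47 ± 0.305) below Erbb2, with no overlap between them. At P75 Egfr (11.7 ± 2.08) was above Erbb2 (7.03 ± 2.56) and Erbb3 (6.69 ± 1.13), which overlapped each other, and Erbb4 had 0.616 ± 0.154. At 6 months Egfr (17.7 ± 1.27) and Erbb3 (17.3 ± 5.09) overlapped, Erbb2 was at 8.98 ± 0.471 and Erbb4 at 3.37 ± 0.941. At 24 months Egfr (16.7 ± 2.25) was again above the overlapping Erbb2 (9.24 ± 1.01) and Erbb3 (9.24 ± 2.21). Nrg4 had means of 1.995 to 3.53 per kb at the 4 ages, with single libraries from 1.22 at P75 to 5.05 at 24 months. It overlapped Erbb4 at P18 and at 24 months. Erbb4 was the lowest of the 9 at every age but 6 months, when Nrg4 was below it.

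**Figure D3:**
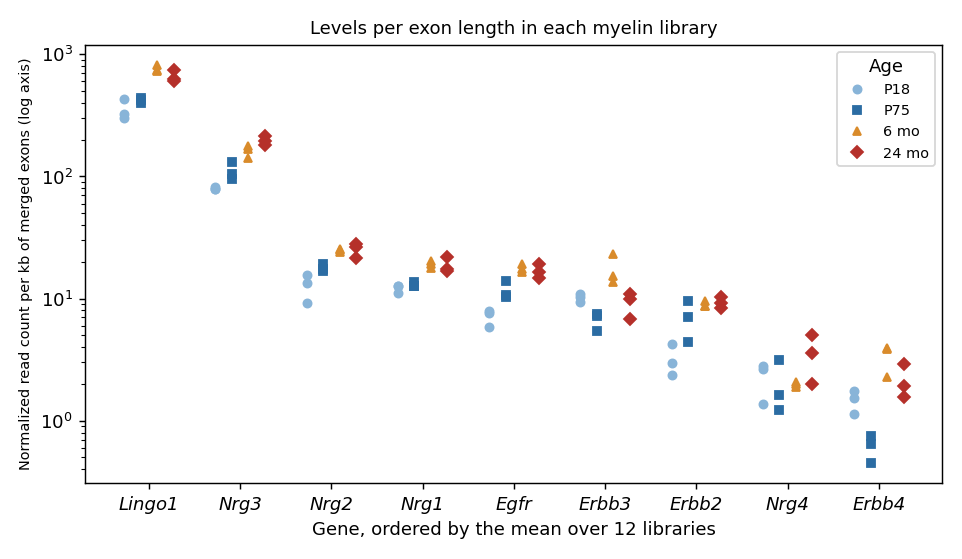
Normalized read count per kb of merged exons (vertical axis, log scale) of each gene in each library, with a colour and symbol for each age and the genes ordered by their mean over 12 libraries. Lingo1 and Nrg3 stand above the other 7 genes at all ages, and Erbb4 at P75 is lowest with 0.448 to 0.750 per kb.

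The other genes of the pathway were followed in 7 lists of 94 genes in all, of which 93 were in the table and 88 were tested. From P18 to P75, 21 of the 88 rose and 30 fell (58% called), and from P75 to 6 months 39 rose and 15 fell (61.4%). From 6 to 24 months 5 rose and 22 fell (30.7%), and from P18 to 24 months 31 rose and 39 fell (79.5%). Scaled to the same total, 28 rose and 21 fell from P18 to P75 and 1 rose and 20 fell from 6 to 24 months, so the excess of falls in the youngest step turned with the scaling. Over the whole span the same total gave 33 rises and 30 falls. These shares stand beside 48.8%, 60.6%, 29.3% and 69.0% of all genes tested.

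Of the other EGF-family ligands, 3 were tested, with 1 rise from P18 to P75, 2 rises and 1 fall from P75 to 6 months, 1 fall from 6 to 24 months and 1 rise over the whole span. Egf, named after its values were seen, rose from 14.6 ± 3.72 at P18 to 34.9 ± 12.9 at P75 (1.16, adjusted p = 0.00622) and fell to 18.5 ± 2.29 at 6 months (-0.82, adjusted p = 0.0330), a fall whose call was lost without P75 replicate 1 (-0.56, adjusted p = 0.165). Hbegf, a heparin-binding ligand of Egfr and Erbb4, had a mean count of 278 ± 14.8 at P75 and 384 ± 19.1 at 6 months (log2 change 0.47, SE 0.12, adjusted p = 0.00482). Tgfa, a ligand of Egfr, fell from 772 ± 58.8 at 6 months to 610.2 ± 19.98 at 24 months (-0.34, SE 0.11, adjusted p = 0.0473), a call lost without 6-month replicate 1 (adjusted p = 0.176), 24-month replicate 1 (adjusted p = 0.128) or 24-month replicate 2 (adjusted p = 0.116). Areg, Ereg, Btc and Epgn were not tested, with mean counts of 4.90, 0.0833, 8.38 and 2.20 over the 12 libraries.

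Proteases that release neuregulins or cut Erbb4, and their relatives, rose more often than they fell. Of 11 tested, 3 rose and 1 fell from P18 to P75 (6 rose and 1 fell with the same total), 8 rose and 1 fell from P75 to 6 months, 2 rose from 6 to 24 months, and 9 rose and 1 fell from P18 to 24 months. Adam10, a sheddase, rose from 1230 ± 88.5 to 1939 ± 203 between P18 and P75 (0.65, SE 0.09, adjusted p = 4.62e-05). Aph1b, a subunit of gamma-secretase, rose from 269 ± 14.7 at P75 to 682 ± 38.3 at 6 months (1.34, SE 0.12, adjusted p = 4.39e-07). Psenen, another subunit, fell from 2028 ± 229 to 1674 ± 133 over the same step (-0.27, adjusted p = 0.0274), a call lost without P75 replicate 2 (adjusted p = 0.149) or 6-month replicate 1 (adjusted p = 0.124), and rose to 2229 ± 43.6 at 24 months (0.42, adjusted p = 0.00959).

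Genes for receptor turnover and feedback inhibition were mixed. Of 20 tested, 3 rose and 9 fell from P18 to P75, 9 rose and 2 fell from P75 to 6 months, 7 fell and none rose from 6 to 24 months, and 5 rose and 9 fell from P18 to 24 months (5 and 5 with the same total). Lrig1, which promotes the breakdown of ErbB receptors, rose from 825 ± 130 at P18 to 1324 ± 70.0 at P75 (0.69, SE 0.10, adjusted p = 7.29e-05) and was at 1743 ± 83.2 at 24 months. Spry4, an inhibitor of Ras-MAPK signaling, fell from 290.4 ± 69.6 to 131 ± 7.50 from P18 to P75 (-1.11, SE 0.17, adjusted p = 7.89e-05). Spred2, of a related family, rose from 121 ± 17.8 at P75 to 470.2 ± 67.8 at 6 months (1.95, SE 0.14, adjusted p = 6.27e-08) and fell to 264 ± 30.3 at 24 months (-0.83, SE 0.14, adjusted p = 0.00162). Spry1 fell by 0.50 from P75 to 6 months (adjusted p = 0.0115).

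Scaffold genes were led by Erbb2ip, whose protein erbin binds Erbb2. It rose from 3369 ± 836 at P18 to 7577 ± 1236 at P75 (1.19, SE 0.20, adjusted p = 0.000194). Dlg4, which encodes PSD-95, a partner of Erbb4 at synapses, fell from 14699 ± 1382 to 8494 ± 1321 (-0.80, SE 0.11, adjusted p = 4.62e-05). Of the 8 scaffolds, 2 rose and 3 fell in this step, 1 rose and 3 fell from P75 to 6 months, 1 rose and 2 fell from 6 to 24 months, and 1 rose and 5 fell from P18 to 24 months. Dlg2 rose by 0.25 from P75 to 6 months (adjusted p = 0.0379), a call lost without 6-month replicate 1 (adjusted p = 0.144) and with the same total (adjusted p = 0.134), and fell by 0.43 from 6 to 24 months (adjusted p = 0.00803). Lin7b fell by 0.96 from P75 to 6 months (adjusted p = 3.18e-06) and changed by 0.29 afterwards (adjusted p = 0.0678), a call lost with the same total (adjusted p = 0.223) and without 6-month replicate 1 or 2 or 24-month replicate 2 or 3 (0.20 to 0.32, adjusted p = 0.115 to 0.265).

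Downstream of the receptors, falls outnumbered rises over the whole span. Of 17 adaptors and Ras-MAPK genes, 3 rose and 8 fell from P18 to P75 (3 and 3 with the same total), 2 rose and 4 fell from P75 to 6 months, 1 rose and 4 fell from 6 to 24 months, and 2 rose and 11 fell from P18 to 24 months. Of 17 genes of PI3 kinase, Akt, mTOR, Src kinases, PLC and STAT5, 3 rose and 7 fell (5 and 6 with the same total), 7 rose and 4 fell, 7 fell and none rose, and 4 rose and 11 fell in the same comparisons. Fyn, a Src family kinase that acts in oligodendrocytes at axon contact, fell from 5807 ± 72.2 at P18 to 2907 ± 209 at P75 (-1.0, SE 0.08, adjusted p = 2.28e-07) and was at 2292 ± 9.60 at 24 months. Mapk3, which encodes the kinase ERK1, fell by 0.73 from P18 to P75 (adjusted p = 4.02e-05), whereas Ptpn11, a phosphatase that promotes Ras activation, rose by 0.80 (adjusted p = 0.00369) and Mtor by 0.51 (adjusted p = 0.000872). From P75 to 6 months Nck1, an adaptor, rose by 0.62 (adjusted p = 0.000227), Plcg1, a phospholipase, rose by 0.49 (adjusted p = 0.00367) and Pik3ca, the catalytic subunit of PI3 kinase, fell by 0.62 (adjusted p = 1.27e-05). Nras, a Ras GTPase, was called at -0.39 (adjusted p = 0.0611), which was lost without P75 replicate 1 (adjusted p = 0.231), 6-month replicate 1 (adjusted p = 0.193) or 6-month replicate 3 (adjusted p = 0.166). Gab1, an adaptor of Egfr, fell by 0.52 from 6 to 24 months (adjusted p = 0.0164). In the same step Pik3r2, a regulatory subunit of PI3 kinase, was at -0.36 (adjusted p = 0.0440), a call lost without 6-month replicate 2 or 24-month replicate 1 or 2 (-0.35 to -0.29, adjusted p = 0.108 to 0.170). Shc1, an adaptor, was at 0.29 (adjusted p = 0.0882), a call lost with DESeq2 (adjusted p = 0.115), with the same total (adjusted p = 0.243), after quantile normalization (adjusted p = 0.162), with the replicate number as a block (adjusted p = 0.110), without a filter on low values (adjusted p = 0.122), and without P18 replicate 1 or 2, 6-month replicate 1 or 3 or any 24-month library (0.25 to 0.31, adjusted p = 0.101 to 0.214).

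The relatives and partners of Lingo1 mostly moved upward with age. Of 12 tested, 6 rose and 2 fell from P18 to P75, 10 rose and none fell from P75 to 6 months, 1 rose and 1 fell from 6 to 24 months, and 9 rose and 2 fell from P18 to 24 months, with medians of 0.41, 0.56, 0.03 and 1.25. Lingo2, a close relative, rose from 144 ± 21.8 at P18 to 277 ± 43.8 at P75 (0.94, SE 0.14, adjusted p = 6.11e-05) and was at 418 ± 21.9 at 24 months. Rtn4, which encodes the myelin inhibitor Nogo, rose from 11012 ± 1130 at P75 to 19533 ± 1120 at 6 months (0.83, SE 0.10, adjusted p = 8.81e-06). Rhoa, the small GTPase downstream of the complex, fell by 0.65 from P18 to P75 (adjusted p = 4.86e-05). Omg, a ligand of the Nogo receptor, was at 0.23 from 6 to 24 months (adjusted p = 0.0544), a call lost with the same total (adjusted p = 0.285) and without 6-month replicate 2 or 3 or 24-month replicate 2 or 3 (0.20 to 0.23, adjusted p = 0.108 to 0.182).

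**Figure D4:**
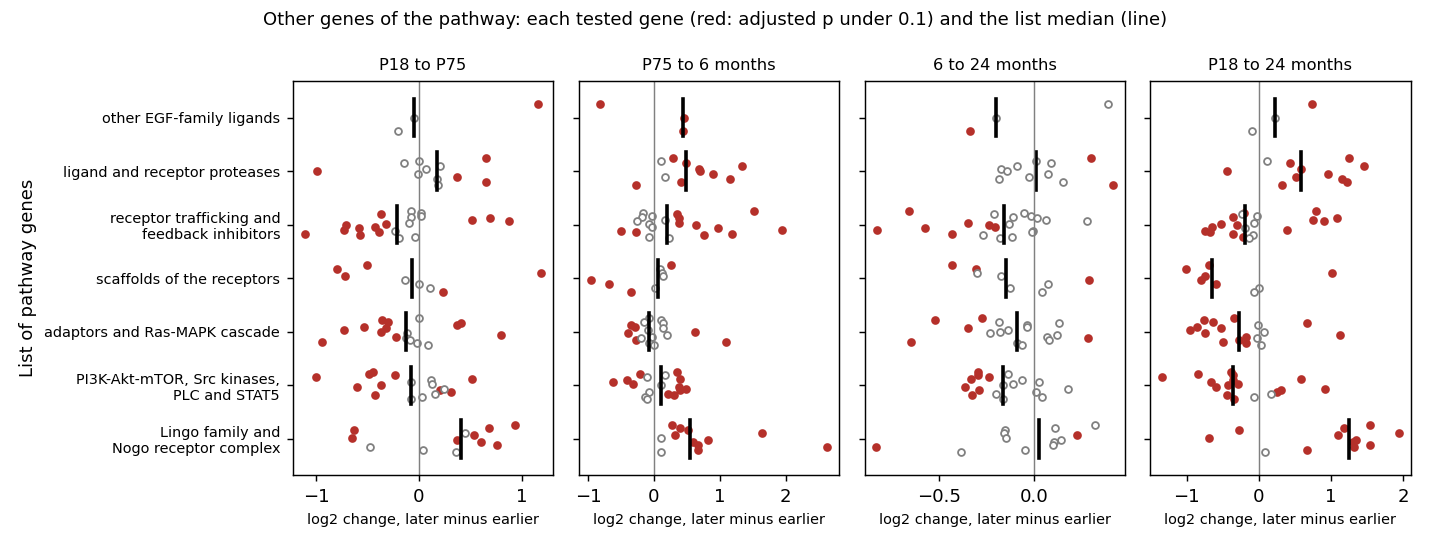
Log2 change (later minus earlier age, horizontal axes) of each tested gene in the 7 lists of other pathway genes (rows), red where the adjusted p is under 0.1, with the median of each list as a vertical line. The Lingo family and Nogo receptor complex has the highest median from P18 to 24 months at 1.25, and the scaffolds of the receptors have the lowest at -0.64.

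For each gene except Nrg1, the 3 other genes (mean count of 100 or more) whose course was most like it were found by Pearson's r of log2(normalized read count + 1) over the 12 libraries, which share ages and depth, so r is a description. Lingo1 ran closest to Nell2, Grin1 and Chrm1 (r = 0.986 to 0.988), all known from neurons, of which Grin1 encodes a subunit of NMDA receptors. Grin1 had mean counts of 1642, 1956, 4505 and 4312 at the 4 ages in order. Nrg3 ran with Vstm2a, AI848100 and Cadm2 (each 0.984), Nrg2 with Adra1b, Cnnm2 and Igf1r (0.968 to 0.979), and Egfr with Axl, Bmpr1a and Enpp4 (0.983 to 0.987). Erbb3 ran with Spred1, Pde1a and Kpna1 (0.940 to 0.955), and Spred1, an inhibitor of Ras-MAPK signaling, had means of 1170, 782, 1527 and 1036, with the same dip at P75 and peak at 6 months. Erbb4 ran with Trpm3, Diap1 and Sik3 (0.949 to 0.958) and Erbb2 with Pcdh18, F2r and Ptprk (0.947 to 0.949). Nrg4 reached no more than 0.811 (Tarbp2). The choice of the closest 3 changed with the scaling: with the same total 1 of the 3 was kept for each of Lingo1 (Nell2), Erbb3 (Spred1) and Erbb4 (Diap1), and after quantile normalization 2, 1 and 1. Of the neuron markers, 6 of 11 rose and 3 fell from P75 to 6 months, when Lingo1 rose. Their median log2 change was 0.43. All 11 summed to between 216697 and 244669 at P75 and to between 207570 and 213649 at 6 months, which was lower without overlap. Snap25 alone had a mean of 141430 at P75 and 88328 at 6 months. Without Snap25 the other 10 summed to between 75554 and 94495 and then to between 118140 and 126592. The part of neurons in the values of Lingo1 was not tested.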

How the data were processed

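The authors aligned reads to mm9 with TopHat (the submitters' processing notes name TopHat2 2.0.8, SAMtools 0.1.19 and HTSeq 0.5.4p1), counted them per gene with HTSeq and scaled every library by its DESeq size factor. The deposited signal is this normalized read count, not corrected for length and not on a log scale. Whether the counting used strand is not given in the sources used here, so genes that overlap another may share reads. Dividing a library by the worth of 1 read gave whole reads (within 0.05 of a read) for 100% of values, which set the depth.

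Ages were compared with limma 3.58.1 (R 4.3.3, trend, empirical Bayes), fitted to log2(normalized read count + 1) of 14634 genes whose mean reached 10, with 12 libraries and age alone in the model, Benjamini-Hochberg adjustment and a false discovery rate of 0.1. A log2 change on this scale understates the change of low genes, and folds are ratios of mean counts. An exact permutation test of 3 against 3 libraries cannot go below p = 0.1 and was not used. Alternatives were pseudocounts of 0.5 and 10, no filter and a mean of at least 100, the 2 ages alone, the replicate number as a block, the same total, quantile normalization, a false discovery rate of 0.05, edgeR 4.0.16 and DESeq2 1.42.0 on recovered reads, and each library left out. The fits were tested on simulated data with the same small spread between libraries for every gene. That simulation did not cover genes with a wider spread, such as Erbb3 at 6 months.

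Named pathway genes are, per list and comparison, the called genes with the largest rise and fall among those with a mean over 12 libraries of at least 100. Labels tie the replicate number to no animal or batch. Deviations of same-numbered libraries correlated at 0.161, 0.101 and 0.187 between P75 and 6 months, where every pair was over 0.1, and at -0.213 to 0.029 in the other steps, so the numbers may pair that step alone, in which the block changed no call of a named gene. Members and lists were chosen with earlier results of these data known. Gene positions and exons come from GENCODE vM1 on NCBIM37, matched by symbol for 96.3% of genes. Hras and Map2 were listed but not matched by symbol and are not analysed here. The genes most like Nrg1 and the full list of mature oligodendrocyte markers are not reported here. Figures used Python 3.11.15 with matplotlib 3.10.9.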

Additional observations from a re-analysis of the deposited data

How the results depend on the processing

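Depth limits Erbb4 at P75, with 5 to 10 reads in a library and a counting error of 36.1%. Nrg4, with 7 to 31 reads and 21.7% to 28.9%, is limited too. So are Erbb2 and Erbb4 at P18, with 11 to 22 and 14 to 19 reads and counting errors of 25.5% and 24.7%. In the 4 comparisons the 9 genes gave 7, 7, 2 and 6 calls. With a mean of at least 100 required, 3 genes (Nrg3, Egfr and Lingo1) were left, and 3, 3, 1 and 3 were called. From 6 to 24 months the count of 2 became 1 without a filter, 1 with the same total, 1 at a false discovery rate of 0.05 and 4 with the libraries of those 2 ages alone, and it ran from 1 to 4 when a library was left out (4 without 24-month replicate 3). The pathway calls of that step went from 27 to 16 at a false discovery rate of 0.05 and to between 11 and 32 with a library left out. They were 16 and 12 without 6-month replicates 1 and 2 and 13 and 11 without 24-month replicates 1 and 2. Of the 27 genes most like a member, a count that includes the 3 of Nrg1, 15 were kept with the same total and 13 after quantile normalization. From 6 to 24 months the same total called 1394 genes up and 1614 down, in place of 2435 and 1852.

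Reversed signs concerned changes that were called in neither fit. They were Nrg4 from P75 to 6 months with DESeq2 (-0.0043), and from 6 to 24 months Nrg2 (-0.016 with the same total, -0.094 after quantile normalization) and Erbb2 (-0.0029 and -0.089). With a library left out, Nrg4 ran from -0.56 to 0.062 from P18 to P75 and from -0.18 to 0.45 from P75 to 6 months, Erbb3 from -0.30 to 0.044 from P18 to 24 months, and from 6 to 24 months Nrg1 from -0.13 to 0.047, Nrg2 from -0.057 to 0.14, Erbb2 from -0.043 to 0.11 and Egfr from -0.18 to 0.0079. The cause was not tested.

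The 3 same-numbered pairs of P75 and 6 months had correlated deviations (0.10 to 0.19), and the 9 of the other steps did not exceed 0.029. With the replicate block 7, 7, 3 and 7 of the 9 genes and 52, 53, 25 and 69 of the 88 pathway genes were called, in place of 7, 7, 2 and 6 and of 51, 54, 27 and 70.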

Other observations

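The ratio of Erbb3 to Erbb2, whose products signal as a pair, was looked at after the values were seen. Within a library, the normalized read count of Erbb3 was 2.55 to 5.27 times that of Erbb2 at P18, 0.867 to 1.96 times at P75, 1.65 to 3.05 times at 6 months and 0.854 to 1.52 times at 24 months. P18 was above P75 and 24 months without overlap, and the ratio at 6 months overlapped those at P18 and at P75. Nrg3 was 7.94 to 9.07 times Nrg1 at P18, 9.48 to 13.0 times at P75, 10.2 to 11.8 times at 6 months and 11.2 to 16.1 times at 24 months. These ratios are of counts and not per length, and were not tested.

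Over the 12 libraries, which share ages and depth, Pearson's r of log2(normalized read count + 1) was 0.805 between Erbb3 and Erbb4, 0.846 between Erbb2 and Egfr and 0.105 between Erbb2 and Erbb3. Nrg1, Nrg2 and Nrg3 had r of 0.865 to 0.899 with each other and 0.843 to 0.915 with Lingo1.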
